A study of Mus musculus with 30 samples.

Results

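The Dlk1-Dio3 cluster is an imprinted region of mouse chromosome 12 in which some genes are read from the chromosome inherited from the father and others from the one inherited from the mother. The 6 named genes of the region, Dlk1, Rtl1 and Dio3 (paternally expressed) and Meg3, Rian and Mirg (maternally expressed), were matched by symbol to the gene identifiers of the expression tables, and each of the 6 had exactly 1 identifier among the 55401 measured. Their RNA was followed in 30 RNA-seq libraries, 2 in each of 15 groups, while mouse embryonic fibroblasts (MEFs) were converted to induced pluripotent stem cells (iPSCs). In the 4-factor arm, MEFs of genotype 129XOG2 (also called OG2 in the labels) were infected with lentivirus carrying Oct4, Sox2, Klf4 and c-Myc and given doxycycline at 2 µg/ml, and were sampled as MEFs (4F-D0), on days 2, 4 and 7 and as iPSCs. In the CF1 chemical arm, MEFs of genotype CF1 were grown in a small-molecule reprogramming medium and sampled as MEFs (CF1-D0), on days 4, 8 and 12 and as iPSCs. In the removal experiment, 129XOG2 MEFs went through chemical reprogramming, and 1 small molecule was left out from day 8 to day 12, when the cells were collected: the groups are CT, -CHIR, -PD, -VC and -WS. CT is here read as the complete medium, since its title alone lacks a minus sign; VC and WS are not spelled out in the labels. OG2 is known as a stock with a green fluorescent reporter driven by Oct4, and MEFs of passages 1 to 3 were used for reprogramming. The iPSCs of both arms grew on feeder cells, which are themselves fibroblasts as a rule, in medium with LIF, CHIR99021 and PD0325901, and the labels do not say whether the 2 iPSC libraries of an arm came from separate lines. Whether the 2 replicates of a group were separate cultures is not said in the labels, and the p-values cover the spread between these libraries alone, possibly a technical one.

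Imprinting at this region is set by DNA methylation of the paternal chromosome at a control element between Dlk1 and Meg3. On the unmethylated maternal chromosome the long non-coding RNAs Meg3, Rian and Mirg are made, together with a large family of microRNAs and small nucleolar RNAs processed from them, and on the paternal chromosome the protein genes Dlk1, Rtl1 and Dio3 are made. Low Meg3, Rian and Mirg is a known mark of mouse iPSC lines in which the maternal copies were silenced during reprogramming, and such lines are known to contribute poorly to chimaeric mice. The values below are total RNA of each gene; the parental copies were not separated, and in such bulk samples fewer cells of a type cannot be told apart from less RNA per cell.

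On the mm10 build (GENCODE M21 annotation) the genes lie on chr12 in this order. Dlk1, which encodes a membrane protein of the delta family that holds back adipocyte differentiation, is at chr12:109452823-109463336 on the plus strand. Meg3 is at chr12:109541001-109571726 (plus), Rtl1, a retrotransposon-derived gene needed in the placenta, at chr12:109589193-109600330 (minus), Rian, host of many C/D small nucleolar RNAs, at chr12:109603940-109661716 (plus), Mirg, host of a microRNA cluster, at chr12:109729764-109749460 (plus), and Dio3, the deiodinase that inactivates thyroid hormone, at chr12:110279068-110281097 (plus). The promoters of Dlk1 and Dio3, the paternal genes that changed most, and of Meg3, the first of the maternal RNAs along the chromosome, are shown, 250 bases before to 50 after the RefSeq start (GRCm38.p6, 5′ to 3′, plus strand). Capitals mark matches on either strand to 7 motifs, namely TATAAA (the TATA box), the CCAAT box, GGGCGG (bound by Sp1), TGACGTCA (the cyclic AMP element), TGANTCA (bound by AP-1), CTTTGAT (bound by TCF/LEF) and TGCCGC (the core of the site of the imprint-keeping protein ZFP57); matches to different motifs do not overlap.
Dlk1, chr12:109452573-109452872: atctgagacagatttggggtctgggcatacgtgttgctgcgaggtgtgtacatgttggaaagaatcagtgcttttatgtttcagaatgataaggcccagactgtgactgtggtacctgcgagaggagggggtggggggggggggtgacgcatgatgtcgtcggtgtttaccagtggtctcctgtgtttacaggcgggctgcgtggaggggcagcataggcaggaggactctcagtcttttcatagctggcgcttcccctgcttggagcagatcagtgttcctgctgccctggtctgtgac
Meg3, chr12:109540746-109541045: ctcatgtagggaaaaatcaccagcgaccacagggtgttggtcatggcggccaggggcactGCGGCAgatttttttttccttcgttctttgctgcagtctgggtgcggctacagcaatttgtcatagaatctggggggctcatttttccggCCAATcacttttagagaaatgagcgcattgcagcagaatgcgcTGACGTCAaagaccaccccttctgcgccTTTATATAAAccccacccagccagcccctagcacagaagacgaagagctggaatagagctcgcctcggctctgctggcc
Dio3, chr12:110278980-110279279: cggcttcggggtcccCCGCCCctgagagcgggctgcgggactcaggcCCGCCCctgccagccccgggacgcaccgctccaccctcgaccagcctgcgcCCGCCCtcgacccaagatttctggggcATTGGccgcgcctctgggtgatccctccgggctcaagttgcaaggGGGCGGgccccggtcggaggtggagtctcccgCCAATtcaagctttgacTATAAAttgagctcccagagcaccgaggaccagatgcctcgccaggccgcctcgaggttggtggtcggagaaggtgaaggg
The Dlk1 window held none of the 7 motifs. The Meg3 window held TATAAA on both strands in overlapping runs, at 29 and 25 bases before the start, CCAAT at 100, TGACGTCA at 57 and TGCCGC at 190 bases before it. The Dio3 window held TATAAA at 31 bases before the start, CCAAT at 125 and 48, and GGGCGG at 4 positions. Among 32851 RefSeq promoters of the same length, 13.6% held TATAAA, 37.4% CCAAT, 35.7% GGGCGG, 1.8% TGACGTCA, 7.8% TGANTCA, 3.7% CTTTGAT and 11.6% TGCCGC. CpG pairs, the sites of DNA methylation, numbered 9 in the Dlk1 window, 13 in that of Meg3 and 25 in that of Dio3, against a median of 7 over all promoters; the Dio3 window had more than 81.6% of them. The Rian window had 0 CpG pairs and no motif match. RefSeq gives Meg3 another start, at chr12:109545398, whose window had 1 CpG pair and no motif match and is not shown. For Dio3 the RefSeq start lies 162 bases after the GENCODE start.

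Rtl1 shares its position with 6 microRNA hairpins on the opposite strand. RefSeq places 58 hairpins and 114 mature arms in the whole region, 14 hairpins within Mirg on its own strand, 3 within Rian and 1 within Meg3. All 11 mature arms encoded against Rtl1 matched an Rtl1 transcript as perfect reverse complements, which follows from their position opposite its exons. No 2 of them shared a seed (bases 2 to 8). Those of 5 arms are shown, with the seed in capitals, since the RNA that carries them lies opposite Rtl1. The sources used here do not say whether reads were counted by strand, so that RNA cannot be told apart from Rtl1 in these tables.
miR-431-5p: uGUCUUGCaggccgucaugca
miR-433-3p: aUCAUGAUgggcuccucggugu
miR-127-3p: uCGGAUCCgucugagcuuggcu
miR-434-3p: uUUGAACCaucacucgacuccu
miR-136-5p: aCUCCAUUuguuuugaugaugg

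Expression is given as FPKM, a fragment count divided by transcript length and by library size, so levels of different genes are compared per length. FPKM sums were 328158 to 469208 per library, and the smallest steps in the values gave a relative depth of 34.6 to 40.2, counted in 1e6 steps. The r between the 2 replicates of a group ran from 0.9615 to 0.9943; those of 4-factor day 4 stood apart most (600 genes over 2-fold between them), then the iPSC libraries of that arm (274 genes) and CT (150 genes), where replicate 2 had 2.03% of its FPKM in mitochondrial genes, where the 9 others of its table had 5.77% to 8.12%. All 13 fibroblast markers were at 1 FPKM or more in both MEF groups, and all 10 pluripotency markers in both iPSC groups, where their sum averaged 3873 (4-factor) and 4014 FPKM (CF1) against 16.3 and 24.3 in MEFs. The summed fibroblast markers were 213 and 181 FPKM in the iPSC libraries of the 4-factor arm, with 7 of 13 at 1 or more, and 333 and 342 in those of CF1, with 13 of 13. Macrophage markers summed to 262 and 247 FPKM in the CF1 MEFs (7 of 7 at 1 or more) and to between 5.69 and 20.7 in all later CF1 libraries. Changes are on the log2(FPKM + 1) scale and are followed by their standard error (SE) from the fit, n is 2 libraries per group, and a gene was called, here also "rose" or "fell", at limma's Benjamini-Hochberg adjusted p under 0.05 over all genes tested and at least 2-fold. All 6 genes passed the filter of 1 FPKM in 2 libraries in the 4-factor arm, 5 in the CF1 arm (not Rtl1) and 4 in the removal experiment (not Rtl1 or Dio3); Rtl1 passed only through days 2 and 4, and Dio3 only through the iPSCs in the 4-factor arm and days 4 and 8 in the CF1 arm. Comparisons with the same starting MEFs, or with CT, share those libraries.

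**Figure D1:**
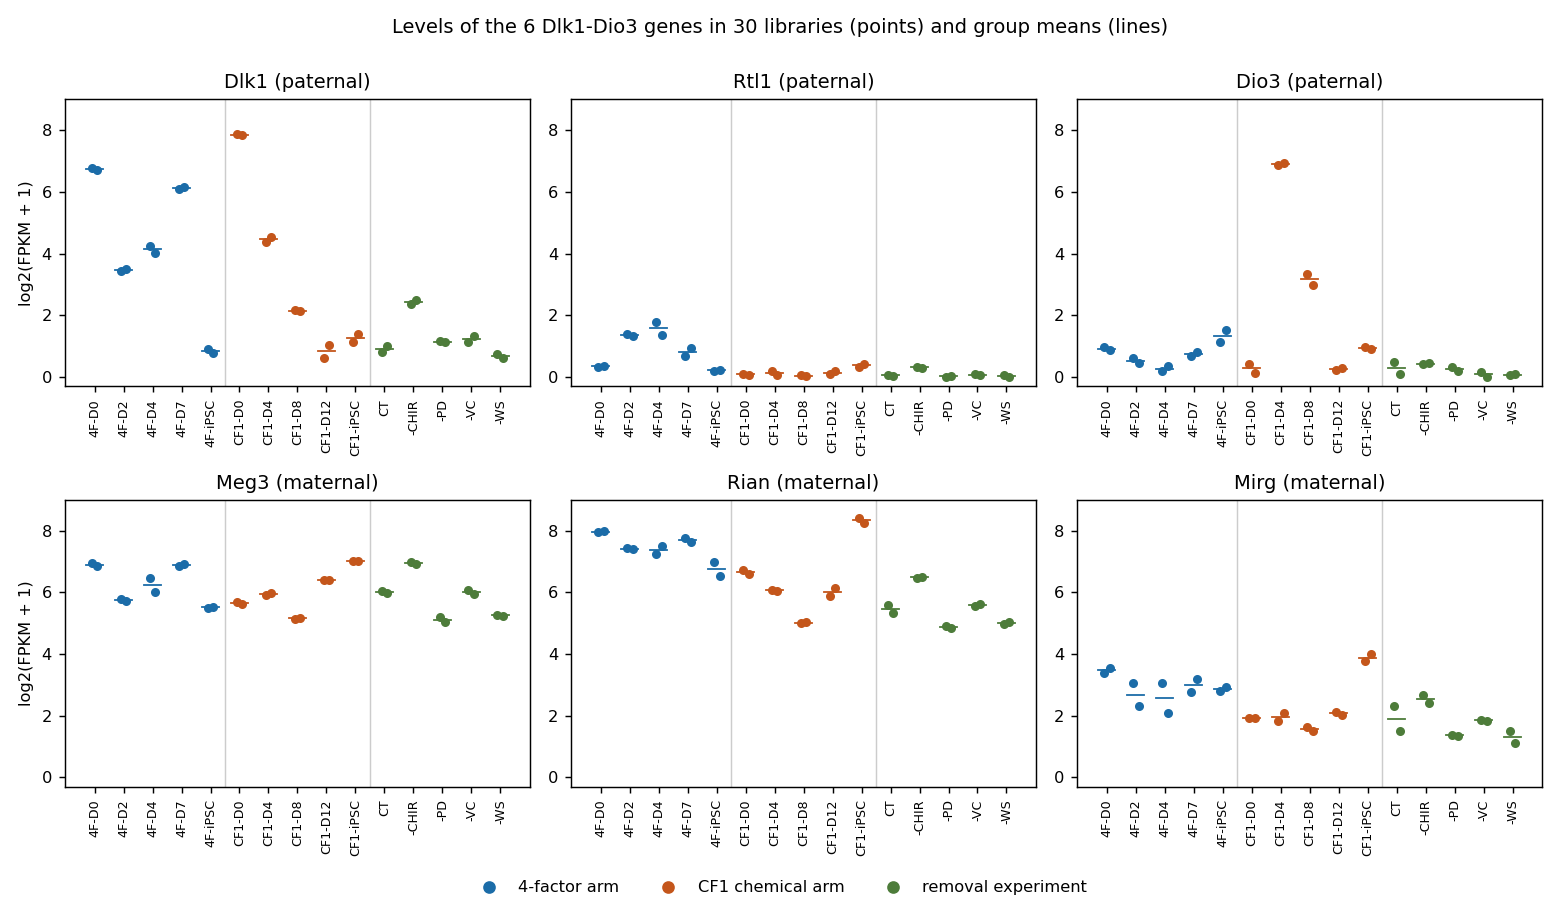
Level of each gene, log2(FPKM + 1), in the 30 libraries (points) with the mean of each group of 2 (line); colours are the 3 tables, which are compared here by level only. Dlk1 was highest in both MEF groups, Dio3 stood out in CF1-D4 and CF1-D8, and Meg3 and Rian were highest in CF1-iPSC.

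Dlk1 was abundant in fibroblasts and nearly gone from iPSCs of both arms. In the 4-factor arm it measured 109.5 and 103.0 FPKM in MEFs, 9.88 and 10.3 on day 2, 17.9 and 15.3 on day 4, 67.4 and 69.7 on day 7 and 0.878 and 0.711 in iPSCs. The level thus dropped on day 2, came back most of the way by day 7 and was lowest in iPSCs, and no group overlapped another. Against MEFs Dlk1 fell by 3.27 ± 0.12 (SE) on day 2 (adjusted p = 2.62e-06) and fell by 2.61 ± 0.12 on day 4 (adjusted p = 1.66e-06). From day 4 to day 7 it rose by 1.99 ± 0.12 (adjusted p = 2.38e-05), and its day 7 difference from MEFs, -0.62 ± 0.12, was under 2-fold. It then fell by 5.28 ± 0.12 from day 7 to iPSCs (adjusted p = 5.11e-09). The 2 day 4 libraries that stood apart gave -2.72 and -2.50 when the other was left out. Skeletal muscle markers dropped with Dlk1, from 24.6 and 25.2 FPKM in MEFs (2 of 6 at 1 or more) to 4.76 and 5.07 on day 2 (3 of 6 at 0). These markers were at 2.83 and 3.00 FPKM on day 7, when Dlk1 was at 67.4 and 69.7. The fibroblast marker sum was 6540 and 6060 FPKM in MEFs and 4840 and 4710 on day 2. It was 4463 and 3971 on day 4 and 9725 and 9714 on day 7. The part of either list was not tested.

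In the CF1 arm Dlk1 measured more in MEFs and fell at each step to day 12. It measured 232.8 and 228.1 FPKM in MEFs, 19.6 and 22.5 on day 4, 3.46 and 3.40 on day 8, 0.544 and 1.07 on day 12 and 1.18 and 1.65 in iPSCs. No 2 groups overlapped, and the day 12 and iPSC libraries were the lowest. The falls were 3.39 ± 0.15 from day 0 to day 4 (adjusted p = 1.25e-07), 2.31 ± 0.15 from day 4 to day 8 (adjusted p = 2.81e-06) and 1.31 ± 0.15 from day 8 to day 12 (adjusted p = 9.84e-05). The iPSCs were above day 12 by 0.43 ± 0.15, under 2-fold. The macrophage marker sum also dropped after day 0, and so did that of skeletal muscle markers, from 22.4 and 23.5 FPKM to 2.01 and 2.16 on day 4, before 24.5 and 22.4 on day 12. Their part in the fall of Dlk1 was not tested; the fibroblast marker sum did not drop with Dlk1, at 3992 and 3929 FPKM on day 0 and 4065 and 4161 on day 4.

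Dio3 was near 0 in most groups and was the most abundant RNA of the cluster on day 4 of chemical reprogramming. In the CF1 arm it measured 0.339 and 0.0986 FPKM in MEFs, 115.3 and 121.5 on day 4, 9.21 and 6.83 on day 8, 0.183 and 0.225 on day 12 and 0.971 and 0.864 in iPSCs. Day 4 and day 8 stood clear of all other groups, and MEFs and day 12 overlapped. Dio3 rose by 6.62 ± 0.14 (SE) from day 0 to day 4, fell by 3.74 ± 0.14 to day 8 and then fell by 2.89 ± 0.14 to day 12. Dio3 passed the filter in this table only through days 4 and 8, so that it was higher there was largely fixed by the filter; with no filter on low values limma gave adjusted p = 3.69e-07, 9.02e-06 and 2.23e-05. In the 4-factor arm its 10 libraries lay between 0.153 and 1.89 FPKM, with the lowest group mean on day 4 and the highest in iPSCs, and it was not called in any of the 7 comparisons; with a pseudocount of 0.1 it was called for day 4 against MEFs (-1.69), day 7 against day 4 (1.33) and iPSCs against day 7 (1.08), and on TPM for day 4 against MEFs (-1.21). In the removal experiment it was listed at 0 to 0.407 FPKM on day 12. The change from day 0 to day 4 differed between the arms by -7.26 ± 0.21 (4-factor minus CF1, adjusted p = 3.13e-10 with no filter), a test added after the values had been seen that called 2 of the 6 genes, beside 27.5% of all genes. Reprogramming method, mouse genotype and table cannot be told apart in it.

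Dio3os, the RNA read in the opposite direction from the Dio3 promoter region (chr12:110275385-110278172, minus), followed the same course at a lower level. It measured 0.10 and 0.0820 FPKM in CF1 MEFs, 13.9 and 14.6 on day 4, 3.52 and 3.64 on day 8 and 0.0952 and 0.230 on day 12. These are levels only; in the annotation Dio3os ends before Dio3 starts, and they do not overlap. Markers of other cells also peaked on day 4: extra-embryonic endoderm markers summed to 59.2 and 59.9 FPKM in MEFs, 349 and 365 on day 4 (7 of 7 at 1 or more, none at 0), 209.5 and 209.7 on day 8 and 99.0 and 96.1 on day 12. Pdgfra, which fibroblasts also express, made up 292 and 303 FPKM of the day 4 sum. Endothelial markers summed to 6.33 and 6.13 FPKM in MEFs and 36.3 and 36.9 on day 4, with 2 of 5 at 1 or more. Their part in the Dio3 rise was not tested.

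**Figure D2:**
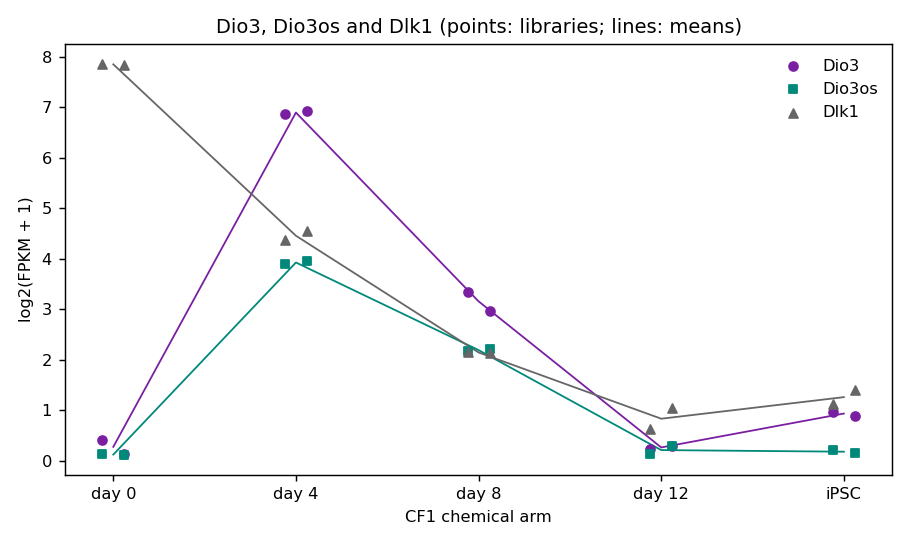
Dio3, Dio3os and Dlk1 in the CF1 chemical arm, as log2(FPKM + 1), with points for the 2 libraries of each time and lines through the means. Dio3 and Dio3os peaked on day 4 and were near 0 again on day 12, while Dlk1 went down at each step to day 12.

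The genes around thyroid hormone and Notch, which Dio3 and Dlk1 act on, were followed as a list of 14. On day 4 of the CF1 arm 12 were tested: 6 rose, 3 fell and 3 were not called, with a median of 1.01 beside 0.04 for all genes, 19.7% of which were called. Dio2, the deiodinase that activates thyroid hormone, rose from 0.109 to 8.18 FPKM (3.05 ± 0.11 (SE)) and the hormone-responsive Klf9 from 9.38 to 21.2 (1.10 ± 0.07). The Notch ligand Jag1 fell from 26.5 to 5.03 FPKM (-2.19 ± 0.09) and the Notch target Hes1 from 65.1 to 14.9 (-2.06 ± 0.08). The receptor Notch3 rose from 3.02 to 7.45 (1.07 ± 0.10). Not all called genes are named here. Notch genes of the list went both ways, so Jag1 and Hes1 do not stand for the others. On day 4 of the 4-factor arm 1 of 10 tested genes rose, Klf9 (1.07 ± 0.12), and 4 fell, among them Hes1 (-1.68 ± 0.18) and Jag1 (-1.09 ± 0.13), with a median of -0.98 beside 0.04 (16.8% of all genes called). In iPSCs against MEFs, 1 of 10 rose and 6 fell in the 4-factor arm (median -1.38 beside 0.14, 41.5% of all genes called), and 2 of 12 rose and 5 fell in the CF1 arm (median -0.64 beside 0.05, 40.5% called). When single molecules were removed, limma called 0 of 9 tested genes against CT in each of the 4 comparisons. At an unadjusted p under 0.05, 4 or 5 passed. Of all genes tested, limma called 0.971% in -CHIR, 1.27% in -PD, 2.33% in -VC and 0.91% in -WS, so a count of 0 is near the background.

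Rtl1 stayed low throughout and was above 1 FPKM only early in the 4-factor arm. It measured 0.264 and 0.270 FPKM in those MEFs, 1.66 and 1.495 on day 2, 2.42 and 1.59 on day 4, 0.617 and 0.914 on day 7 and 0.154 and 0.166 in iPSCs. Days 2 and 4 overlapped each other and no other group of the arm. The rises over MEFs were 1.02 ± 0.15 (SE) on day 2 and 1.23 ± 0.15 on day 4; without day 2 replicate 1 the day 2 value was 0.98, under 2-fold. Since Rtl1 was tested only through these days, its higher level there was largely fixed by the filter; with no filter the adjusted p were 0.0163 and 0.00257. Neural markers moved with it up to day 4, at 26.3 and 26.2 FPKM in MEFs, 93.5 and 95.4 on day 2, 153 and 127 on day 4 and 54.5 and 54.4 on day 7, with 3 of 5 at 1 or more at each time; they were at 140 and 142 in iPSCs, where Rtl1 was low. Keratinocyte markers went from 0.331 and 0.599 FPKM in MEFs to 6.34 and 7.24 on day 2 (1 of 4 at 1 or more) and were as high on day 7, at 6.84 and 7.75, and the part of either list was not tested. In the other 20 libraries Rtl1 was at most 0.332 FPKM, and the change to day 4 differed between the arms by 1.18 ± 0.16 (adjusted p = 0.000143 with no filter, a test added after the values had been seen), or 0.98, no longer called, without 4-factor day 4 replicate 1.

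The maternal RNAs were present at every stage and, measured against MEFs, moved less than Dlk1 in both arms. Their iPSC levels lay on opposite sides of the starting level in the 2 arms, for Mirg without a call in the 4-factor arm. Meg3, a long non-coding RNA with growth-restraining activity, measured 123.2 and 113.2 FPKM in 4-factor MEFs, 53.4 and 51.6 on day 2, 86.4 and 63.6 on day 4, 113.2 and 119.1 on day 7 and 44.3 and 45.3 in iPSCs. Day 7 overlapped the MEFs, and the iPSC libraries were the lowest. Meg3 fell by 1.15 ± 0.15 (SE) on day 2 (adjusted p = 0.00141) and by 1.35 ± 0.15 from day 7 to iPSCs (adjusted p = 3.22e-05). In the CF1 arm it measured 50.4 and 48.2 FPKM in MEFs, 58.7 and 62.2 on day 4, 34.3 and 35.1 on day 8, 83.9 and 82.9 on day 12 and 127.2 and 129.0 in iPSCs. These groups did not overlap; Meg3 was lowest on day 8 and highest in iPSCs, and it rose by 1.24 ± 0.05 from day 8 to day 12 (adjusted p = 2.24e-07).

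Rian was the most abundant RNA of the cluster in the 4-factor arm at all 5 stages. It measured 244.8 and 250.8 FPKM in MEFs, 170.2 and 168.2 on day 2, 151.1 and 180.5 on day 4, 213.2 and 198.7 on day 7 and 124.0 and 90.3 in iPSCs. The MEF libraries were the highest and the iPSC libraries the lowest, and day 4 spanned day 2. In the CF1 arm Rian measured 103.3 and 94.9 FPKM in MEFs, 66.8 and 64.9 on day 4, 31.0 and 31.7 on day 8, 57.9 and 68.9 on day 12 and 340.3 and 301.9 in iPSCs. It fell by 1.63 ± 0.09 (SE) from day 0 to day 8 (adjusted p = 5.79e-07), and 1.05 ± 0.09 of this came after day 4 (adjusted p = 1.90e-05). From day 12 to iPSCs it rose by 2.33 ± 0.09 (adjusted p = 1.98e-08), which put the iPSCs clear above all other libraries of the series.

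Mirg, at a few FPKM, was the scarcest of the maternal RNAs and had the widest replicate spread. Its 4-factor libraries measured 9.51 and 10.7 FPKM in MEFs, 7.36 and 3.95 on day 2, 7.42 and 3.30 on day 4, 5.88 and 8.06 on day 7 and 5.96 and 6.58 in iPSCs. Apart from the MEFs, these groups overlapped one another, and Mirg was not called in any of the 7 comparisons of the arm; without day 4 replicate 1 its day 4 value passed, at -1.37 in place of -0.88. In the CF1 arm it measured 2.80 in both MEF libraries, 2.57 and 3.28 on day 4, 2.08 and 1.86 on day 8, 3.37 and 3.07 on day 12 and 12.6 and 14.97 in iPSCs. The iPSC libraries stood clear of the rest, and Mirg rose by 1.80 ± 0.12 (SE) from day 12 to iPSCs (adjusted p = 7.14e-07).

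Counted over the cluster, 0 to 4 genes were called in a comparison, with Rtl1 among them on 4-factor days 2 and 4 and Dio3 in the CF1 comparisons with day 4 or day 8; neither count is independent of the filter. In the 4-factor arm 3 of 6 genes were called on day 2 against MEFs (beside 3.68% of all genes tested), 2 on day 4 (16.8%), 0 on day 7 (10.1%) and 3 in iPSCs (41.5%); on TPM, 4 were called on day 4, Mirg (-1.20) and Dio3 (-1.21) being added. Between successive times limma called 0 from day 2 to day 4 (10.9%), 1 from day 4 to day 7 (7.61%) and 2 from day 7 to iPSCs (45.7%). In the CF1 arm, of 5 tested genes, 2 were called on day 4 against MEFs (19.7%), 3 on day 8 (24.3%), 1 on day 12 (25.6%) and 4 in iPSCs (40.5%). The steps gave 3 calls from day 4 to day 8 (13.1%), 3 from day 8 to day 12 (11.2%) and 2 from day 12 to iPSCs (49.2%). Beside the shares of 40.5% to 49.2% in the comparisons with iPSCs, 2 or 3 of 5 or 6 genes is near the background. Where limma called 0 of 6, on day 7 against MEFs and from day 2 to day 4, 2 passed at an unadjusted p under 0.05 in each.

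**Figure D3:**
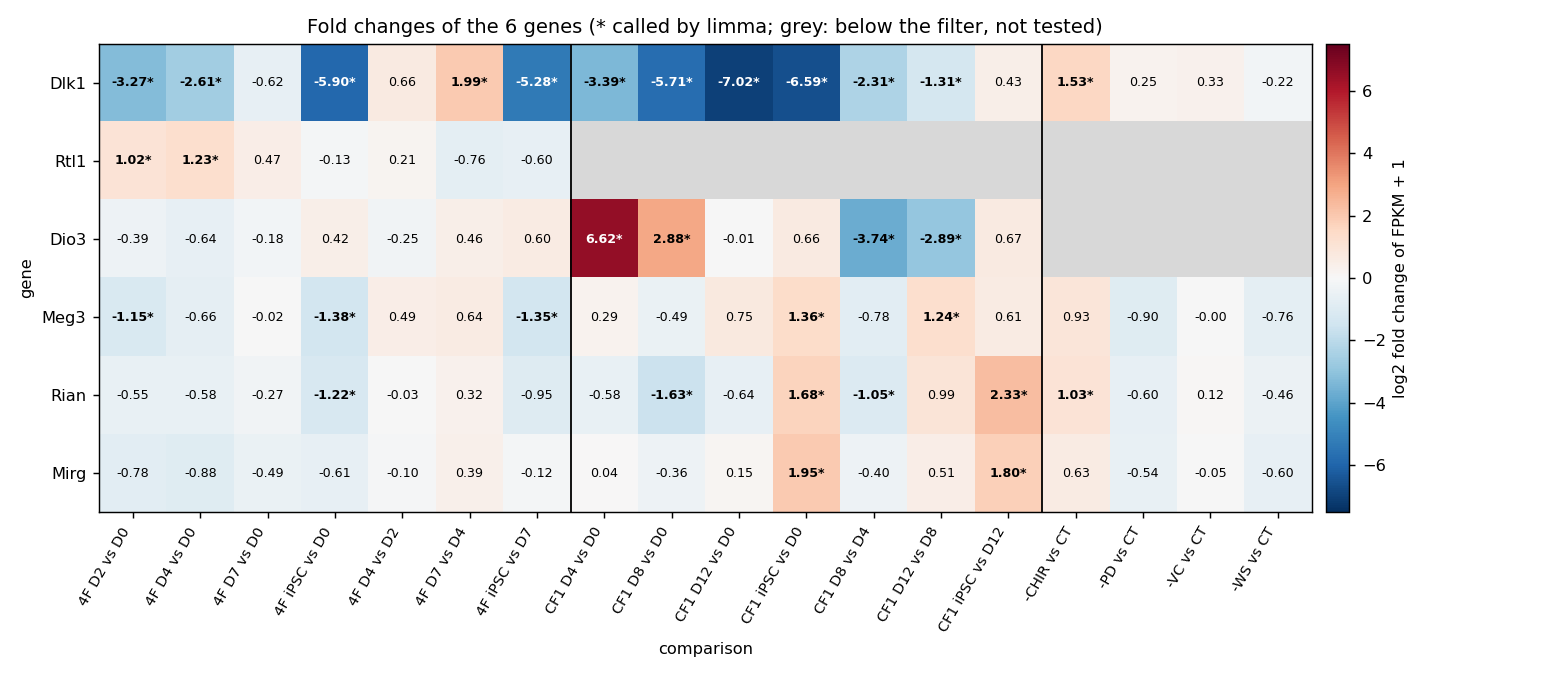
Log2 fold change of FPKM + 1 for the 6 genes in the 18 comparisons within a table; blue is lower and red higher in the first-named group, bold values with a star were called, and grey cells were not tested. Dlk1 was called in most comparisons of both arms, Dio3 in the CF1 comparisons with day 4 or day 8, Meg3 and Rian lower in 4-factor iPSCs than in MEFs, and all 3 maternal RNAs higher in CF1 iPSCs than in MEFs.

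The comparison of iPSCs with the MEFs they came from showed a fall of Dlk1 in both arms and opposite changes of the maternal RNAs. Dlk1 fell in both, by 5.90 ± 0.12 (SE) in the 4-factor arm (adjusted p = 3.65e-09) and fell by 6.59 ± 0.15 in the CF1 arm (adjusted p = 9.42e-10). The maternal RNAs went opposite ways: Meg3 fell by 1.38 ± 0.15 in the 4-factor arm (adjusted p = 3.15e-05) and rose by 1.36 ± 0.05 in the CF1 arm (adjusted p = 2.33e-08). Rian fell by 1.22 ± 0.17 (adjusted p = 0.000149) and rose by 1.68 ± 0.09 (adjusted p = 2.30e-07). Mirg gave -0.61 ± 0.33 in the 4-factor arm, not called, and rose by 1.95 ± 0.12 in the CF1 arm (adjusted p = 5.36e-07). Dio3 gave 0.42 ± 0.14 and 0.66 ± 0.14, both under 2-fold; with a pseudocount of 0.1 it was called in the CF1 arm, at 1.78.

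In 1 fit over both arms, the change from MEFs to iPSCs differed for 3 of 6 genes, beside 10.8% of all genes tested. The difference, 4-factor minus CF1, was -2.74 ± 0.15 (SE) for Meg3 (adjusted p = 2.07e-08), -2.90 ± 0.19 for Rian (adjusted p = 8.55e-08) and -2.56 ± 0.38 for Mirg (adjusted p = 0.000176). For Dlk1 it was 0.69 ± 0.19, under 2-fold. The 2 arms differ in reprogramming method, mouse genotype and table, which cannot be told apart. Without 4-factor iPSC replicate 2 the fall of Rian was 0.99, under 2-fold, and the difference -2.68. Levels of both arms' iPSCs stayed well above 0 for Meg3 (lowest library 44.3 FPKM) and Rian (lowest 90.3), while the fibroblast marker sum was 3.13% of that in MEFs in the 4-factor arm and 8.52% in the CF1 arm; the part of feeder cells in the iPSC levels was not tested.

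**Figure D4:**
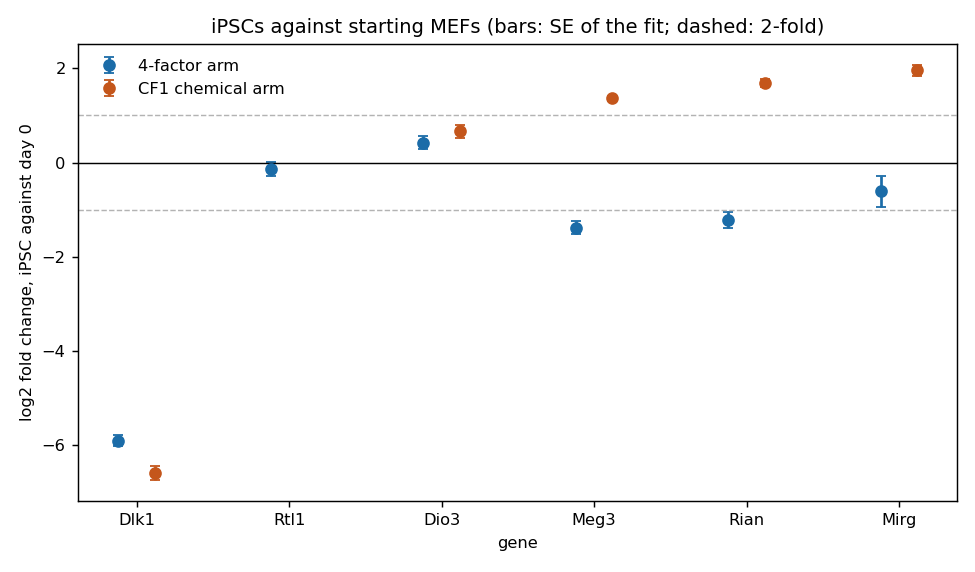
Log2 fold change of FPKM + 1 from MEFs to iPSCs in the 4-factor and the CF1 chemical arm (points; bars are the SE of the fit; dashed lines mark 2-fold; Rtl1 was not tested in CF1). Dlk1 was at -5.90 and -6.59, while Meg3, Rian and Mirg were below 0 in the 4-factor arm and above 0 in the CF1 arm.

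In the removal experiment Dlk1 and Rian rose when CHIR was left out, and no gene of the cluster was called for the other molecules. Dlk1 measured 0.746 and 1.00 FPKM in CT and 4.17 and 4.66 in -CHIR, and the other 3 arms lay between 0.530 and 1.53. Rian measured 47.5 and 38.8 FPKM in CT, 87.1 and 89.8 in -CHIR, 28.7 and 27.4 in -PD, 45.5 and 47.7 in -VC and 30.3 and 31.5 in -WS. Both genes were thus highest without CHIR, with no overlap, and Rian was lowest without PD or WS. In -CHIR against CT, 2 of 4 tested genes were called, both higher, beside 0.971% of all genes: Dlk1 by 1.53 ± 0.12 (SE, adjusted p = 0.000164) and Rian by 1.03 ± 0.09 (adjusted p = 0.000246). Without CT replicate 2, the library with low mitochondrial RNA, Dlk1 gave 1.63 and Rian 0.88, under 2-fold, so the count was 1; without CT replicate 1, Mirg was called as well, at 1.04, and the count was 3.

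Meg3 measured 64.5 and 62.2 FPKM in CT, 124.2 and 118.8 in -CHIR, 35.6 and 31.5 in -PD, 66.1 and 60.6 in -VC and 37.0 and 36.9 in -WS. The -CHIR libraries lay above CT and the -PD and -WS libraries below it, while -VC overlapped it. These differences passed on adjusted p but were under 2-fold and so were not called: 0.93 ± 0.08 (SE) in -CHIR (adjusted p = 0.000164), -0.90 ± 0.08 in -PD (adjusted p = 0.000159) and -0.76 ± 0.08 in -WS (adjusted p = 0.000419). Mirg measured 3.96 and 1.83 FPKM in CT, between which the libraries of -VC fell, and 5.38 and 4.31 in -CHIR, above both. limma called 0 of 4 genes in -PD (beside 1.27% of all genes), -VC (2.33%) and -WS (0.91%); at an unadjusted p under 0.05, 3 of 4 passed in -PD, 1 in -VC and 3 in -WS. On values rescaled to a common total (TPM) Meg3 was called in -PD, at -1.07, and without CT replicate 2 Mirg was called in -WS, at -1.0. Endothelial and keratinocyte markers were also higher without CHIR, the former at 24.3 and 25.8 FPKM against 8.87 and 7.47 in CT (3 and 2 of 5 at 1 or more, 1 at 0 in both) and the latter at 3.39 and 3.11 against 1.35 and 1.04 (1 and 0 of 4 at 1 or more), while the fibroblast sum was 20174 and 19348 against 22190 and 28518. Neural markers (30.8 and 35.1 against 23.4 and 19.4) and extra-embryonic endoderm markers (208 and 200 against 171 and 155) were higher as well. The sums of pluripotency, skeletal muscle and trophoblast markers were lower, and that of macrophage markers overlapped CT. The part of these lists was not tested.

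Weighed together, the paternal genes exceeded the maternal RNAs only in CF1 cells up to day 4. The sum of Dlk1, Rtl1 and Dio3 was 59.8% and 61.0% of the 6-gene FPKM in CF1 MEFs, where Dlk1 made up the paternal side, and 51.3% and 52.5% on CF1 day 4, where Dio3 did. In 4-factor MEFs it was 22.7% and 21.7%, on day 2 4.96% and 5.17%, and on day 7 17.1% and 18.0%. In every iPSC, CF1 day 12 and removal library it was under 2.5%, from 0.4997% (a CF1 iPSC library) to 2.41% (-CHIR). Taken as a mean of log2(FPKM + 1), which weighs the genes equally, the paternal side was below the maternal one in 15 of 15 groups; Dlk1 minus Meg3 alone was above 0 in CF1 MEFs, at 2.2, and the mean without Rtl1 was above 0 on CF1 day 4, at 1.02. No test was run on these sums.

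**Figure D5:**
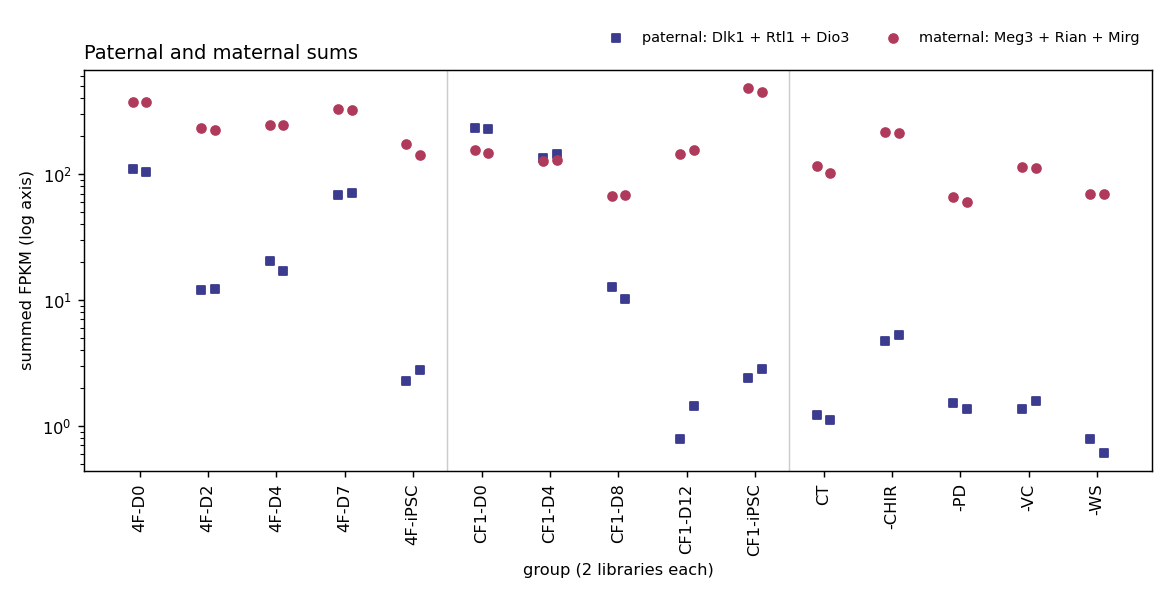
Summed FPKM (log axis) of the paternal genes Dlk1, Rtl1 and Dio3 (squares) and of the maternal RNAs Meg3, Rian and Mirg (circles) in each of the 30 libraries. Squares lie above circles in CF1-D0 and CF1-D4 only, and maternal sums stay between 60.4 and 480 FPKM.

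Among the maternal RNAs the balance between Rian and Meg3 differed between groups. Per length, Rian exceeded Meg3 in all 10 4-factor libraries, by a ratio of 1.67 to 3.26, and in CF1 MEFs (2.05 and 1.97) and CF1 iPSCs (2.67 and 2.34). On CF1 day 4 the ratio was 1.14 and 1.04, on day 8 0.902 and 0.903, on day 12 0.689 and 0.831, and in the 10 removal libraries it lay between 0.624 and 0.868. All libraries of chemical intermediates from day 8 on thus had more Meg3 than Rian, and no other library did. The 4-factor arm was not sampled between day 7 and iPSCs, so route and day cannot be told apart here. Within tables of 10 libraries Meg3 and Rian correlated with r of 0.81 (4-factor), 0.83 (CF1) and 0.98 (removal), and Rian and Mirg with 0.32, 0.92 and 0.92. Dlk1 and Rian correlated with 0.94, -0.04 and 0.86. The libraries of a table share their processing and fall in 5 groups, so these are descriptions.

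In order of mean level, Dlk1 was highest in CF1 MEFs (230 FPKM), then 4-factor MEFs (106) and 4-factor day 7 (68.6), each clear of the next, and lowest in -WS (0.611); 4 of 14 neighbours in its order overlapped. Meg3 was highest in CF1 iPSCs (128), clear of -CHIR (121.5), which overlapped the next group, and lowest in -PD (33.6), with 7 of 14 neighbours overlapping. Rian ran from CF1 iPSCs (321) to -PD (28.0) with 5 overlaps. Mirg, Dio3 and Rtl1 had 8, 8 and 9 overlapping neighbours. Among 7800 other genes at 5 FPKM or more in every table, the courses most like that of Dlk1 were those of Osr1 (mean r of 0.87 over the 3 tables), Tmsb4x (0.84), Alcam (0.84), Mvb12b (0.83) and Cbx6 (0.83). For Meg3 they were Plagl1 (0.72), itself an imprinted gene, Pou6f1 (0.72), Iah1 (0.72), Slc38a2 (0.71) and Gstm1 (0.70). Rian was closest to Tmem254b (0.80), Gas2 (0.80), Tmem254a (0.79), Tmem254c (0.78) and Clic4 (0.77), where the Tmem254 genes are near-identical copies whose reads may have been split. Mirg was closest to Tcf7l1 (0.80), Phf10 (0.72), Jup (0.72), Mnt (0.69) and Kat5 (0.68).

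Regulators of imprinting, among them the Tet genes that oxidise methylated cytosine, were followed as a list of 18. In iPSCs against MEFs 13 of 18 rose and 2 fell in the 4-factor arm (median 2.33 beside 0.14 for all genes, 41.5% of which were called), and 12 rose and 2 fell in the CF1 arm (median 1.95 beside 0.05, 40.5% called). Dnmt3l, a cofactor of de novo methylation, rose from 0.198 to 54.8 FPKM (5.53 ± 0.17 (SE)) in the 4-factor arm and from 0.0387 to 32.8 (5.02 ± 0.20) in the CF1 arm. Zfp57, which keeps imprints methylated, rose from 24.2 to 245 FPKM (3.29 ± 0.12) and from 18.5 to 219 (3.50 ± 0.10). Tet1, which oxidises methylated cytosine, rose by 3.99 ± 0.20 and 3.91 ± 0.09, Dnmt3b by 3.91 ± 0.16 and 3.93 ± 0.12, and Jarid2, a partner of Polycomb complex 2, by 3.10 ± 0.13 and 3.45 ± 0.09. Dppa3, known to guard Meg3 imprinting during reprogramming, was listed at 0 in 4-factor MEFs and at 10.7 FPKM in the iPSCs, and rose from 0.0496 to 29.8 FPKM in the CF1 arm. In the fit over both arms 1 of the 18 differed in this change, Dppa3 (-1.32 ± 0.17, 4-factor minus CF1). Beside the 10.8% of all genes that differed, 1 of 18 is not above the background.

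Before the iPSC stage fewer of the 18 were called than in iPSCs. On day 8 of the CF1 arm 2 rose and 5 fell against MEFs (median -0.24, 24.3% of all genes called). On day 7 of the 4-factor arm 3 rose and 1 fell (median 0.12, 10.1% of all genes called). On day 4 of the CF1 arm 2 rose and 1 fell (median 0.13 beside 0.04, 19.7% of all genes called), led by Jarid2, from 1.79 to 60.2 FPKM (4.45 ± 0.09 (SE)). On day 12 of that arm 5 fell and 0 rose (median -0.31 beside -0.06, 25.6% called): Uhrf1, which guides Dnmt1, from 26.9 to 1.06 FPKM (-3.76 ± 0.09), Dnmt1, the maintenance methyltransferase, from 47.1 to 8.94 (-2.27 ± 0.07), Zfp57 (-1.96 ± 0.10), Ezh2 (-1.78 ± 0.08) and Aff3 (-1.53 ± 0.13). On day 4 of the 4-factor arm Tet2 rose from 1.87 to 10.5 FPKM (2.00 ± 0.22) and Aff3 fell (-1.95 ± 0.19). In the removal experiment limma called 0 of 16 tested in -CHIR, -PD and -WS, where 1, 4 and 3 passed at an unadjusted p under 0.05. In -VC 1 fell, Dppa3, from 1.35 FPKM to a listed 0. The shares of all genes called were 0.971% in -CHIR, 1.27% in -PD, 2.33% in -VC and 0.91% in -WS, so these counts are near the background.

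Of the 110 other gene identifiers between the start of Dlk1 and the end of Dio3, 67 are microRNAs and 23 small nucleolar RNAs, and 36 were at 0 in every library. Only 6 reached 1 FPKM in 2 libraries of a table. The most abundant was Gm3379, a processed pseudogene (chr12:109894452-109895093, minus), at 4.51 to 31.4 FPKM, whose reads may belong to its parent gene. Gm34081 was above 1 FPKM only in the CF1 iPSC libraries, at 2.67 and 2.28, and Mir3072 reached 2.58 in 1 of them.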

How the data were processed

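Total RNA was sequenced as 150-base reads in 30 libraries, 2 per group, and the authors deposited FPKM values per gene in 3 tables of 10 libraries each. The submitters' processing notes name HISAT2 2.2.1, StringTie 2.0, fastp 0.20.1 and the build mm10, with no order or role; annotation and strand setting are not given in the sources used here. Each table holds 55401 gene identifiers, 99.5% with a symbol. Whole reads could not be recovered, since among 11699 single-exon genes only 10.1% to 20.4% of values lay within 0.3% of a whole step, so no count test was run and no counting interval is given.

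Each table was tested with limma 3.58.1 (R 4.3.3, eBayes with trend) on log2(FPKM + 1), with 1 coefficient per group, over genes at 1 FPKM or more in 2 libraries. This left 14761 genes in the 4-factor table, 15442 in the CF1 table, 13290 in the removal table and 16205 in the fit over both arms. A call needed an adjusted p (Benjamini-Hochberg, over all genes tested) under 0.05 and a change of at least 2-fold. A fold on this scale understates changes of low genes. Tables were compared only through the change within each; levels set across them are descriptions. The procedure was tested on simulated data.

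All 6 genes of the cluster were named. From each gene list at most 6 called genes at 5 FPKM or more in the higher group were named, by size of change; genes outside this rule (Dppa3 in -VC) were named after their values were seen. A gene of the Notch and thyroid hormone list is counted but not reported here by name. The members and lists were chosen with earlier results of these data known. Alternatives were a pseudocount of 0.1, no filter, a filter of 5 FPKM, rescaling to a common total per library (TPM), the replicate number as a term and leaving out each library. Motifs and microRNAs came from RefSeq (GRCm38.p6); 5 of the 6 genes had a promoter entry.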

Additional observations from a re-analysis of the deposited data

Results flagged for a closer look

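The change from MEFs to iPSCs differed between the 4-factor and the CF1 arm for the 3 maternal RNAs, as 4-factor minus CF1 on the log2(FPKM + 1) scale in limma's fit over 20 libraries. For Meg3, which averaged 118 and 44.8 FPKM before and after in the 4-factor arm and 49.3 and 128 in the CF1 arm, the difference was -2.74 (adjusted p = 2.07e-08). For Rian, at 248 and 107 FPKM against 99.1 and 321, it was -2.90 (adjusted p = 8.55e-08). For Mirg, at 10.1 and 6.27 FPKM against 2.80 and 13.8, it was -2.56 (adjusted p = 0.000176). Both libraries of each arm lay on the same side of their MEFs. The change from MEFs to day 4 differed for Dio3 by -7.26 (adjusted p = 3.13e-10 with no filter on low values), which averaged 118 FPKM on CF1 day 4 and 0.212 on 4-factor day 4. It differed for Rtl1 by 1.18 (adjusted p = 0.000143 with no filter), which averaged 2.00 FPKM on 4-factor day 4 and 0.102 FPKM on CF1 day 4. The day 4 test was added after the values had been seen, both genes passed the filter only through groups where they were high, and Rtl1 gave 0.98 and was not called without 4-factor day 4 replicate 1. Reprogramming method, mouse genotype and table cannot be told apart in any of these.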

How the results depend on the processing

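Of 969 values of single genes under an alternative setting, 916 kept their direction and side of the threshold, 4 lost and 27 gained a call, and 22 changed sign, 0 of them called in either setting. The number of genes called in the cluster moved by over 1.5 times as follows, beside moves of 1 gene from a count of 2 or more. With a pseudocount of 0.1 it was 1 on day 7 against MEFs, 3 from day 4 to day 7 and 4 from day 7 to iPSCs in the 4-factor arm. With the filter of 5 FPKM, under which Rtl1 was not tested in any table and Dlk1 not in the removal experiment, it was 1 on 4-factor day 4, 1 in -CHIR and 1 in the day 4 difference between arms. On TPM it was 4 on 4-factor day 4, 1 in -PD and 4 in that difference; the cause was not tested. Leaving out 1 library gave 2 to 3 on 4-factor days 2 and 4 and in iPSCs against MEFs or day 7, and 3 to 4 from CF1 day 8 to day 12, with Rian at 1.00 to 1.11 where it was called. It gave 1 to 3 in -CHIR and 0 to 1 in -WS, in both cases through CT replicates 1 or 2, 2 to 3 in the day 4 difference, and the same count in all other comparisons. In those fits the lone library is taken to vary like the other groups. Same-numbered replicates deviated together with r of -0.21 to 0.25, so the numbers do not pair the samples; the fit with the replicate block changed no call of a member, with 3 and 4 genes called in 4-factor and CF1 iPSCs.

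Sign changes were all of values that were not called. Leaving out 1 library, the ranges that crossed 0 were -0.0846 to 0.0361 for Meg3 on 4-factor day 7 and -0.0626 to 0.0598 in -VC, and for Dio3 -0.1538 to 0.1321 on CF1 day 12 (0.0384 with a pseudocount of 0.1). For Rian they were -0.1625 to 0.0933 from 4-factor day 2 to 4, -0.0283 to 0.2585 in -VC (-0.0402 on TPM) and -0.1284 to 0.1273 in the day 4 difference (0.0033 with a pseudocount of 0.1). For Mirg they were -0.5816 to 0.3881 from 4-factor day 2 to 4, -0.0925 to 0.8772 from day 4 to 7, -0.3193 to 0.0782 from day 7 to iPSCs, -0.0907 to 0.1717 on CF1 day 4 (-0.0818 on TPM) and -0.4514 to 0.3573 in -VC. The mean log2 of paternal less maternal genes turned to 2.2 in CF1 MEFs for Dlk1 less Meg3 and to 1.02 on CF1 day 4 without Rtl1.

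TPM moved the median of all genes by over 0.1 in 10 of 20 comparisons, by -0.1977 at most, and the split of calls by over 10 points in 9, such as -VC from 39.5% to 20.8% higher. Counts over all genes that moved by over 1.5 times with a pseudocount of 0.1 were 543 to 977 (4-factor day 2), 1493 to 2578 (day 7), 1610 to 2655 (day 2 to 4), 1123 to 1916 (day 4 to 7), 2020 to 3182 (CF1 day 4 to 8), 1732 to 2880 (day 8 to 12) and 1758 to 2669 (iPSC difference). On TPM 4-factor days 2 and 7 gave 848 and 2291, and without day 4 replicate 1 its steps gave 2519 and 1991. With a pseudocount of 0.1, on TPM and without CT replicate 1, -CHIR went from 129 to 258, 208 and 243, -PD from 169 to 345, 258 and 359, -VC from 309 to 655, 534 and 504, and -WS from 121 to 264, 227 and 301. FPKM values carry no read counts, so the precision of low genes such as Rtl1, Dio3 and Mirg is known only from 2 replicates.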

Other observations

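Imprinted genes of other regions changed in several of the same comparisons. Among 20 paternally expressed genes elsewhere, 1 of 15 tested rose and 9 fell from MEFs to iPSCs in the 4-factor arm (median -1.17 beside 0.14 for all genes, 41.5% of which were called), while 3 of 17 rose and 5 fell in the CF1 arm (median 0.09 beside 0.05, 40.5% called). Igf2, a fetal growth factor, fell from 679 to 0.105 FPKM (-9.27 ± 0.30, SE) in the former and fell by 8.42 ± 0.10 in the latter, and Snrpn, a splicing-factor gene, rose by 2.66 ± 0.14 and 3.39 ± 0.11. Peg3, a zinc-finger gene, fell from 43.7 to 3.37 FPKM in the 4-factor arm (-3.37 ± 0.18) and measured 15.4 and 19.8 in CF1 MEFs and iPSCs, under 2-fold. Mest, a hydrolase-like gene, fell by 2.37 ± 0.12 in the 4-factor arm and rose from 8.79 to 22.2 FPKM (1.25 ± 0.08) in the CF1 arm. The change differed between the arms for 8 of 17, beside 10.8% of all genes tested. Of these, 7 were lower in the 4-factor arm, led by Peg3 (-3.71 ± 0.19) and Mest (-3.62 ± 0.14). Method, genotype and table cannot be told apart. On day 4 of the CF1 arm, when Dio3 peaked, 8 of 17 rose and 0 fell (median 0.66 beside 0.04, 19.7% of all genes called), among them Mest from 8.79 to 148 FPKM (3.93 ± 0.08), Peg3 from 15.4 to 73.4 (2.18 ± 0.05) and Plagl1, a growth regulator, from 14.5 to 36.0 (1.25 ± 0.08). Without CHIR 2 of 13 rose (0.971% of all genes called), Plagl1 from 11.5 to 33.9 FPKM (1.48 ± 0.10) and Igf2 from 309 to 792 (1.39 ± 0.19). For each of the other 3 molecules 1 of 13 was called, beside 1.27% of all genes in -PD, 2.33% in -VC and 0.91% in -WS.

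Among 17 maternally expressed genes of other regions, 4 rose and 6 fell from MEFs to iPSCs in both arms, of 11 tested in the 4-factor arm (median -1.60) and 12 in the CF1 arm (median -0.69). Of all genes tested, 41.5% and 40.5% were called there. H19, a non-coding RNA beside Igf2, fell from 1393 to 1.88 FPKM (-8.92 ± 0.25) and from 1070 to 7.52 (-6.97 ± 0.07). Phlda2, a placental growth regulator, rose from 0.0575 to 32.4 FPKM (4.96 ± 0.20) and from 0.0683 to 6.53 (2.77 ± 0.22). On CF1 day 4 H19 rose from 1070 to 2777 FPKM (1.38 ± 0.07). In the removal experiment H19 rose without CHIR, from 836 to 1704 FPKM (1.03 ± 0.11), the call among 8 tested genes in that comparison, and Cdkn1c, a cell-cycle inhibitor, was called lower without PD, VC or WS, at -1.13, -1.12 and -1.54. Among 15 genes next to the cluster on chromosome 12 that are not known as imprinted, 4 of 14 were called in 4-factor and 4 of 15 in CF1 iPSCs. Beside these counts stand the same shares of all genes, 41.5% and 40.5%. Hsp90aa1, a chaperone, rose in both (2.82 ± 0.18 and 2.66 ± 0.07), as did the kinase gene Mok (2.12 ± 0.22 and 2.81 ± 0.17). In the removal experiment limma called 0 of 12 of these neighbours in -CHIR, -PD and -WS, where 3, 3 and 0 passed at an unadjusted p under 0.05, and 1 in -VC, Wars (1.00). Of all genes tested, 0.971% were called in -CHIR, 1.27% in -PD, 2.33% in -VC and 0.91% in -WS. These lists were chosen with earlier results known, and no set test was run. Trophoblast markers summed to between 1.60 and 27.1 FPKM over the 30 libraries, highest in CF1 iPSCs.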
